A study of Saccharomyces cerevisiae with 4 samples.

Results

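The protein genes of the yeast mitochondrial ribosome that are named MRPL, MRPS or RSM with a number were compared between wild-type cells and cells without TOR1. The genes were taken by name alone, as all features of the count files whose standard name in the R64 annotation of Saccharomyces cerevisiae is MRPL, MRPS or RSM followed by digits. This rule gave 54 of the 7127 counted features. Of these, 34 encode the large subunit (MRPL) and 20 the small subunit (9 MRPS and 11 RSM). The members lie on 14 of the 16 nuclear chromosomes, 28 of them on the plus strand.

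The wild type was BY4741, a haploid laboratory strain of mating type MATa in the S288C background with the alleles his3-1, leu2-0, met15-0 and ura3-0. The tor1 deletion strain carried all of these alleles and in addition YJR066w::kanMX4, in which a drug-resistance cassette takes the place of TOR1, a kinase subunit of TOR complex 1, which adjusts growth to the nutrients at hand. Both strains were grown at 30 °C in minimal medium with 2% dextrose and 0.5% ammonium sulfate, with histidine, leucine, methionine and uracil, and were harvested at an optical density of 0.5 to 0.7, and every title carries a time of 4 h. Each strain gave 2 libraries of poly(A) RNA, read by Ion Torrent sequencing. Whether they came from separate cultures, and whether the deletion was more than 1 clone, is not stated in the labels, and p-values then rest on a spread between libraries that may be technical only.

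The mitochondrial ribosome translates the few messages encoded by mitochondrial DNA, most of them core subunits of the respiratory chain and the ATP synthase. In yeast, almost all of its proteins are encoded in the nucleus, made on cytosolic ribosomes and imported, and they are assembled on ribosomal RNAs made inside the organelle. Some are counterparts of bacterial ribosomal proteins and others occur only in mitochondria. The small subunit reads the codons, and the large subunit forms the peptide bond and holds the exit tunnel. One small-subunit protein, Var1, is itself encoded by mitochondrial DNA, and it was not measured, because the 31 features of the mitochondrial genome had 0 counts in every library.

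Nearly all members share a short sequence downstream of the reading frame that the choice by name did not use. Puf3, an RNA-binding protein of the Pumilio family, is known in yeast to bind messages of nuclear-encoded mitochondrial proteins through the letters TGTANATA, where N is any base. These letters occurred on the coding strand within the 200 bases after the stop codon in 53 of 54 members (98.1%, Wilson 95% interval 90.2 to 99.7%). Among all nuclear coding genes they occurred in 844 of 5989 (14.1%). The sites below, read from the RefSeq R64 genome, are those of the 8 members that were called higher in the deletion with any 1 library left out, and then of the 3 members with the lowest fold changes among those that have a site. Each is written 5′ to 3′ on the coding strand as 30 bases with the 8 matching letters in capitals. Of the 2 sites of MRPL1, MRPS16 and MRPL3, the one with a C 2 bases before the motif is given.
MRPL1 (chrIV:682619-682648, minus strand): atataaaatcaTGTACATAcaaagtaaccg
MRPS18 (chrXIV:58860-58889, plus strand): atatatattcgTGTAAATAattcgattttt
MRPS12 (chrXIV:694269-694298, minus strand): atacaacctttTGTAAATAgcaatgaccat
MRPS9 (chrII:536224-536253, plus strand): ttcgttattccTGTAAATAaagttatatgt
RSM28 (chrIV:1438036-1438065, plus strand): tcttacataccTGTAAATAtctagtacgta
RSM23 (chrVII:267626-267655, minus strand): cccatttctcaTGTACATAtaaatagataa
RSM10 (chrIV:540462-540491, plus strand): gatttcgtactTGTAAATAaaataggtgaa
MRPS16 (chrXVI:528840-528869, minus strand): tctatcagactTGTAAATAatacatctatg
MRPL11 (chrIV:99267-99296, plus strand): ctattcaatcaTGTACATAcatcatcaaaa
MRPL3 (chrXIII:323089-323118, plus strand): gaatacattctTGTACATAtatatatacac
MRPL39 (chrXIII:251207-251236, minus strand): ttcatttatccTGTAAATAagtaatggata

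The members held 66 such sites in all. One site was found in 41 members, 2 in 11 members and 3 in RSM19. The sites began 8 to 165 bases after the stop codon, with a median of 56.5 bases. The base at N was A in 29 sites, T in 20, C in 16 and G in 1. A C 2 bases before the motif, a letter that Puf3 is known to favour, stood at 43 sites in 43 members (79.6%), against 253 of all coding genes (4.22%). Among the sites printed, that of MRPS12 lacks it. All 34 large-subunit members had a site, as did 19 of the 20 small-subunit members. RSM22 was the member without one. A match is a description of the sequence, not a binding site or a cause, and transcript ends were not used to set the window.

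**Figure D1:**
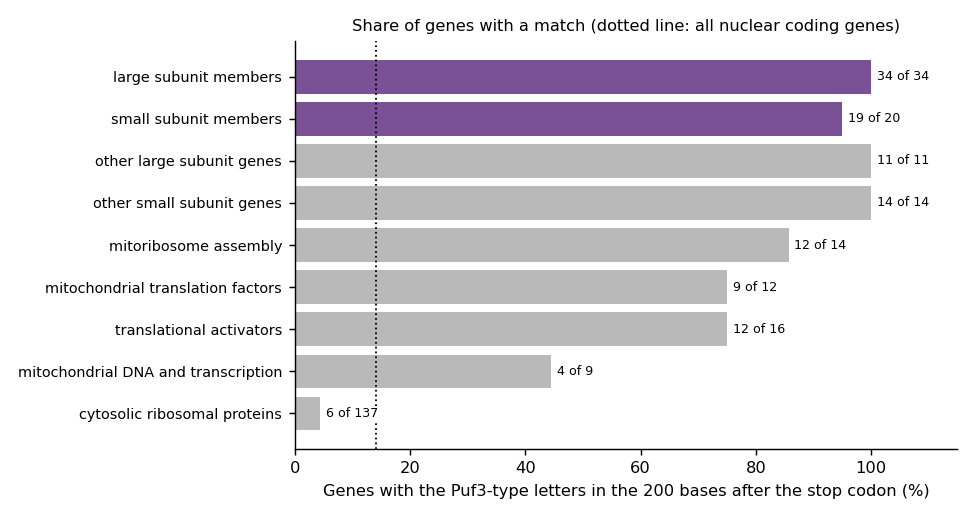
Share of genes (percent, horizontal axis) with TGTANATA in the 200 bases after the stop codon, for the members by subunit (purple) and other gene lists (grey), with the number of genes beside each bar and a dotted line at the 14.1% of all nuclear coding genes. Both subunits stand at 95% or above, and cytosolic ribosomal protein genes at 4.38%.

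TOR1 had 635 and 357 counts in wild-type libraries 1 and 2, and 0 and 1 in deletion libraries 1 and 2, as the labels state. Libraries held 8060480 to 14446057 counts, where 3 counts, the limit that a count of 0 allows, equal 0.208 to 0.372 CPM, which are counts scaled to the library total. All other levels here are CPM scaled further by TMM factors, which balance the libraries on the bulk of their genes. The mating-type genes MFA1, MFA2, STE2 and BAR1 were abundant in all 4 libraries, at 407 CPM or more. STE3, a receptor gene of the other mating type, stood at 10.9 and 8.46 CPM in the wild type and 2.59 and 4.34 CPM in the deletion. LEU2 had no reads, and MET17 and URA3 had at most 3 counts in a library. HIS3, listed as his3-1 in both strains, was read at 553 to 1629.6 CPM. Across 6197 tested genes, 1665 were higher (26.9%) and 1543 lower (24.9%) in the deletion at an adjusted p below 0.05, around a median of −0.02 on the log2 scale.

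The mitoribosomal genes as a group stood higher in the deletion. All 54 passed the filter on low counts. In the edgeR quasi-likelihood test with Benjamini-Hochberg adjustment over all 6197 genes, 23 members rose, none fell and 31 did not pass, so that 42.6% of members were called higher beside 26.9% of all tested genes. No member was lower at an unadjusted p below 0.05 either, or in DESeq2, limma-voom or the edgeR likelihood ratio test, but 4 were called lower under upper quartile factors and 2 with library totals alone. Their median log2 fold change was 0.46, and 46 of the 54 values were above 0. The 4 libraries separated by strain, with both deletion libraries above both wild-type libraries, in 37 members (68.5%), while 38.6% of all tested genes showed this. In 3 members both deletion libraries were lower, against 40.2% of all tested genes, and in 14 members the strains overlapped. The log2 fold changes ran from −0.60 for RSM22 to 1.33 for MRPL1.

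Of all counts, 0.414% and 0.402% fell on members in wild-type libraries 1 and 2, as did 0.496% and 0.461% in deletion libraries 1 and 2. In bulk RNA, a change in the number of cells that express a gene and in the RNA per cell cannot be told apart. The excess of members called higher over all genes was lost when either wild-type library was left out. Without wild-type library 1, 10 members rose (18.5%) beside 16.7% of all genes, and without wild-type library 2, 9 rose (16.7%) beside 17.1%, and none fell in either edgeR fit. With deletion library 1 left out, 35 rose (64.8%, all genes 36.2%) and 5 fell (MRPL11, MRPL37, MRPL39, RSM22 and RSM27). Without deletion library 2, 34 rose (63.0%, all genes 31.8%) and 1 fell (MRPL3). In each of these fits the lone library of a strain is assumed to vary as the other strain's pair does. How many of all tested genes rose in all 4 fits was not counted, so the next count has no background beside it. The 8 members whose sites head the list above rose in all 4 of these fits, and 7 of the 8 belong to the small subunit.

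**Figure D2:**
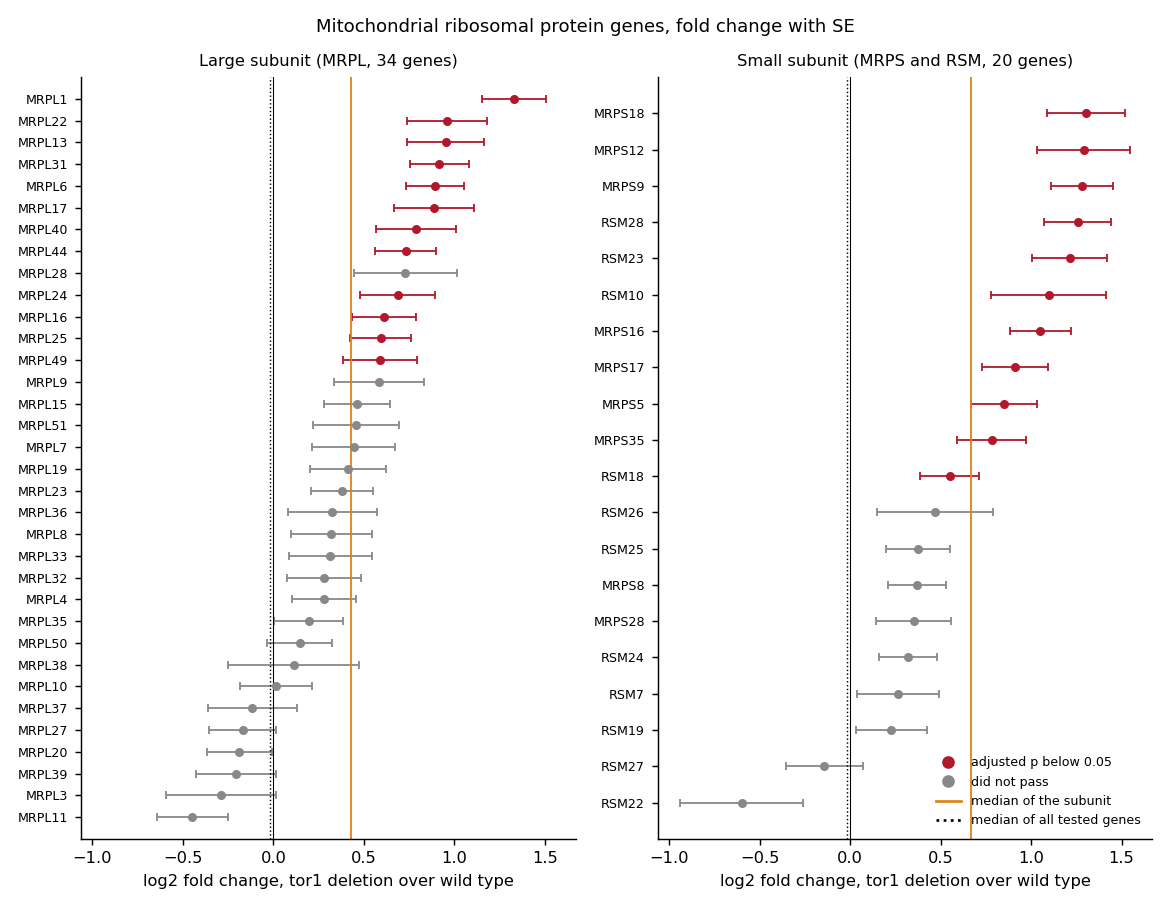
Log2 fold change of each member, deletion over wild type (horizontal axis), with bars of 1 SE, for the large subunit (left) and the small subunit (right). Red points passed an adjusted p below 0.05, and the orange lines mark the subunit medians of 0.43 and 0.67, to the right of the dotted median of all tested genes at −0.02.

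In the small subunit, 11 of 20 members rose (55.0%, all tested genes 26.9%), none fell (all tested genes 24.9%) and 9 did not pass. The median log2 fold change of the 20 was 0.67. Without wild-type library 1 or 2, 8 and 7 rose, and without deletion library 1 or 2, 16 and 14. The shares of all genes called higher in these fits are those given above, 16.7%, 17.1%, 36.2% and 31.8%. Among the 9 genes named MRPS, 7 rose, and in all 9 both deletion libraries were above both wild-type libraries. Among the 11 named RSM, 4 rose, and 6 separated upward. Of all tested genes, 38.6% separated upward. The MRPS median was 0.91 and the RSM median 0.37, which was −0.02 under upper quartile factors. Without wild-type library 2, 4 of the 9 MRPS genes rose.

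MRPS18 encodes the counterpart of bacterial S11, a protein of the platform near the exit site. Its level was 103 and 98.5 CPM in the wild-type libraries and 205 and 293 CPM in the deletion libraries. Both deletion libraries were clearly higher, the second more so, and the rise was 2.47-fold (log2 1.30 ± 0.21 SE, edgeR adjusted p = 0.00271, n = 2 per strain, as for all values here). MRPS12, the counterpart of S12 at the decoding centre, stood at 147 and 122 CPM in the wild type and 405 and 253 CPM in the deletion. The strains did not overlap, although the deletion libraries were far apart, and the log2 fold change was 1.29 ± 0.26 (edgeR adjusted p = 0.00572). MRPS9, the counterpart of S9, whose tail reaches the peptidyl-tRNA site in bacteria, stood at 58.5 and 64.6 CPM in the wild type and 141 and 158 CPM in the deletion. Here the libraries of each strain lay close together, and the log2 fold change was 1.28 ± 0.17 (edgeR adjusted p = 0.00126).

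RSM28 encodes a mitochondria-specific protein, mS46. Its level was 67.2 and 57.8 CPM in the wild type and 135 and 164 CPM in the deletion, again without overlap, a log2 fold change of 1.26 ± 0.19 (edgeR adjusted p = 0.00185). RSM23 encodes mS29, a GTP-binding protein related to human DAP3. It stood at 27.7 and 29.5 CPM in the wild type and 56.4 and 76.0 CPM in the deletion. Each deletion library was above each wild-type library, and the log2 fold change was 1.21 ± 0.21 (edgeR adjusted p = 0.00316). RSM10, the counterpart of S10 in the head of the subunit, stood at 155 and 165 CPM in the wild type and 457.9 and 227 CPM in the deletion. The first deletion library was far above the second, and the log2 fold change of 1.10 carried a larger SE of 0.32 (edgeR adjusted p = 0.0250). MRPS16, the counterpart of S16, was at 82.7 and 82.1 CPM in the wild type and 183 and 159 CPM in the deletion. The pair of wild-type libraries nearly coincided, and the log2 fold change was 1.05 ± 0.17 (edgeR adjusted p = 0.00251).

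The other small-subunit members that rose had smaller changes. MRPS17, MRPS5 and MRPS35 had log2 fold changes of 0.91, 0.85 and 0.78, with edgeR adjusted p of 0.00608, 0.00799 and 0.0126. RSM18 rose by 0.55 ± 0.16 on the log2 scale from one of the highest wild-type levels of all members.

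At the other end, RSM7, the counterpart of S7 in the head of the subunit, stood at 224 and 194 CPM in the wild type and 299 and 204 CPM in the deletion. The strains overlapped, and its log2 fold change of 0.26 ± 0.22 did not pass (edgeR adjusted p = 0.351). RSM19, the counterpart of S19, was at 109 and 117 CPM in the wild type and 152 and 114 CPM in the deletion, which also overlap, with a log2 fold change of 0.23 ± 0.20 (edgeR adjusted p = 0.357). Both values turned negative when libraries were scaled by upper quartile factors or by their totals alone, and that of RSM7 also without deletion library 1. RSM27, which encodes mitochondria-specific mS33, stood at 65.3 and 56.1 CPM in the wild type and 63.8 and 46.6 CPM in the deletion. The strains overlapped, and its log2 fold change was −0.14 ± 0.21 (edgeR adjusted p = 0.594), with the sign changed when deletion library 2 was left out.

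RSM22 had the lowest log2 fold change of all members. Its protein resembles a methyltransferase, acts in assembly of the small subunit and has no place in the mature ribosome structure, so that RSM22 is a member by name only. It was at 204 and 249 CPM in the wild type and 204 and 95.2 CPM in the deletion. The first deletion library was practically level with the first wild-type library and only the second was low. The log2 fold change of −0.60 ± 0.34 did not pass (edgeR adjusted p = 0.177). RSM22 was called lower without deletion library 1, under upper quartile factors and with library totals alone. Without RSM22, 11 of 19 small-subunit members rose and their median was 0.78.

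MRPS12 and RSM19 are the only members next to each other. Both lie on the minus strand of chromosome XIV, 229 bases apart, with RSM19 upstream. MRPS12 rose and RSM19 did not pass, and the difference between them was not tested.

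**Figure D3:**
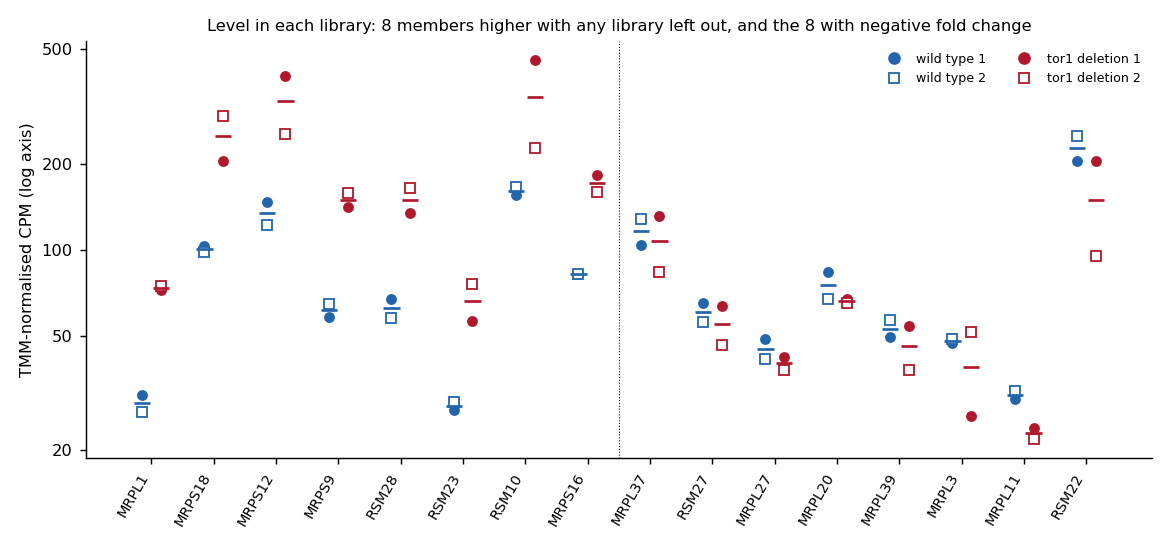
Level of 16 members in each library (TMM-normalised CPM, log axis) for the wild type (blue) and the deletion (red), with filled circles for libraries 1, open squares for libraries 2 and a short line at each strain's mean. To the left of the dotted line are the 8 members that rose with any 1 library left out. That choice itself selects members in which the strains are apart. To the right are the 8 with a negative fold change, in most of which the strains overlap.

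In the large subunit, 12 of 34 members rose (35.3%, all tested genes 26.9%), none fell (all tested genes 24.9%) and 22 did not pass. The median log2 fold change of the 34 was 0.43. Only 2 (5.88%) rose without wild-type library 1 and 2 without wild-type library 2, a smaller share than the 16.7% and 17.1% of all genes in those fits. Without deletion library 1 or 2, 19 (55.9%) and 20 (58.8%) rose, beside 36.2% and 31.8% of all genes. In 22 members (64.7%) both deletion libraries were above both wild-type libraries, beside 38.6% of all tested genes. In 2 members (5.88%) both were below, beside 40.2% of all tested genes, and in 10 the strains overlapped. A single member of this subunit, MRPL1, changed by 2-fold or more, against 7 of the 20 in the small subunit. Rises of this size were seen in 8 of the 54 members and in 1088 of all 6197 tested genes. They were thus no more frequent among members than among all genes.

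MRPL1 encodes the counterpart of bacterial L1, the protein of the mobile stalk beside the exit site. Its level was 31.1 and 27.3 CPM in the wild-type libraries and 72.5 and 74.6 CPM in the deletion libraries. The strains were far apart and the libraries of each were close, and the rise of 2.52-fold was the largest of all members (log2 1.33 ± 0.18, edgeR adjusted p = 0.00124). MRPL22, the counterpart of L22, which lines the exit tunnel, stood at 43.1 and 41.5 CPM in the wild type and 66.4 and 97.7 CPM in the deletion. Both deletion libraries were higher, unequally so, with a log2 fold change of 0.96 ± 0.22 (edgeR adjusted p = 0.0107).

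Genes for several mitochondria-specific proteins rose. MRPL13, which encodes mL50, was at 70.5 and 75.7 CPM in the wild type and 117 and 166 CPM in the deletion, a log2 fold change of 0.95 ± 0.21 without overlap (edgeR adjusted p = 0.00904). MRPL31, which encodes mL60, was at 54.4 and 51.8 CPM in the wild type and 102 and 99.0 CPM in the deletion. Its libraries agreed within each strain, and the log2 fold change was 0.92 ± 0.16 (edgeR adjusted p = 0.00351). MRPL17 (mL46) rose by 0.89 ± 0.22 on the log2 scale, from 25.1 and 27.3 CPM to 40.4 and 56.2 CPM (edgeR adjusted p = 0.0142). MRPL44 (mL53) is the only member with an intron in its coding sequence. It rose by 0.73 ± 0.17, from 84.2 and 95.4 CPM to 151 and 147 CPM (edgeR adjusted p = 0.00992), with no overlap.

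Genes for bacterial counterparts rose beside them. MRPL6 (L6) was at 49.96 and 49.3 CPM in the wild type and 91.2 and 92.9 CPM in the deletion, with little spread within a strain. Its log2 fold change was 0.89 ± 0.16 (edgeR adjusted p = 0.00396). MRPL40, the counterpart of L24 near the tunnel exit, rose from 14.8 CPM in both wild-type libraries to 23.1 and 27.8 CPM, a log2 fold change of 0.79 ± 0.22 (edgeR adjusted p = 0.0218). MRPL24 (L28), MRPL16 (L16), MRPL49 (L21) and the mitochondria-specific MRPL25 (mL59) rose by 0.59 to 0.69 on the log2 scale. MRPL28, which encodes mitochondria-specific mL40, had a log2 fold change of 0.73 but did not pass, with 106 and 123 CPM in the wild type and 244 and 134 CPM in the deletion (edgeR adjusted p = 0.0685), and it was called higher by DESeq2, by the edgeR likelihood ratio test and without deletion library 2.

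Only 6 large-subunit members had a negative log2 fold change, and none of them passed. MRPL11 encodes the counterpart of L10, which anchors the stalk that recruits translation factors. It was at 30.2 and 32.3 CPM in the wild type and 24.0 and 21.9 CPM in the deletion. Both deletion libraries were lower, and the log2 fold change was −0.45 ± 0.20 (edgeR adjusted p = 0.0967). MRPL11 was called lower under upper quartile factors, with library totals alone and without deletion library 1. MRPL3 encodes mL44, a protein with a ribonuclease III-like fold. It was at 47.2 and 48.8 CPM in the wild type and 26.4 and 51.7 CPM in the deletion. The deletion libraries enclosed the wild type, and its log2 fold change of −0.29 ± 0.30 was 0.12 without deletion library 1 and called lower without deletion library 2.

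MRPL39, the counterpart of L33, was at 49.6 and 56.8 CPM in the wild type and 54.1 and 38.1 CPM in the deletion, which overlap, at a log2 fold change of −0.21 ± 0.22 that was 0.03 without deletion library 2. MRPL20 (mL58) was at 83.5 and 67.5 CPM in the wild type and 67.2 and 65.4 CPM in the deletion. Its strains were apart by a very small margin, at −0.19 ± 0.18. MRPL27 (mL41) was at 48.9 and 41.6 CPM in the wild type and 42.4 and 38.2 CPM in the deletion, overlapping, at −0.17 ± 0.19. MRPL20 and MRPL27 were both called lower under upper quartile factors. MRPL37 (mL54) was at 104 and 128 CPM in the wild type and 131 and 83.7 CPM in the deletion, and its log2 fold change of −0.12 ± 0.25 was positive without wild-type library 2 and without deletion library 2.

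MRPL32, the counterpart of L32, is cut by the m-AAA protease of the inner membrane before it joins the ribosome. It was at 43.6 and 34.3 CPM in the wild type and 51.6 and 43.3 CPM in the deletion, which overlap narrowly. Its log2 fold change of 0.28 ± 0.20 did not pass (edgeR adjusted p = 0.283), and it was negative under upper quartile factors and library totals. Both subunits of the protease rose: AFG3 by 0.72 ± 0.23, from 49.5 and 47.7 CPM to 62.8 and 96.7 CPM (edgeR adjusted p = 0.0373), and YTA12 by 0.63 ± 0.19, from 42.8 and 37.4 CPM to 57.0 and 67.5 CPM (edgeR adjusted p = 0.0260).

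Summed over members, the ratio of the subunits differed between the strains. The large-subunit members summed to 1848 and 1847 CPM in the wild-type libraries and to 2639 and 2365 CPM in the deletion libraries. The small-subunit members summed to 1801 and 1790 CPM in the wild type and to 3100 and 2634 CPM in the deletion. The ratio of large over small was thus 1.03 in both libraries of the wild type, against 0.851 and 0.898 in those of the deletion, which do not overlap. Without RSM22 the wild-type ratios were 1.16 and 1.20 and the deletion ratios 0.911 and 0.932, so that the level sums of the wild type depend on that gene. From the strain means, the sums rose 1.35-fold for the large and 1.60-fold for the small subunit.

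With 2 libraries against 2, an exact permutation test cannot go below p = 0.33, so the ratio was not tested. The difference of the subunit medians, large minus small, was −0.24 on the log2 scale. It was −0.08 when the 11 large and 14 small structural genes that carry other names were added, at medians of 0.46 and 0.53, so its size depends on the naming rule. With these genes, 18 of 45 large-subunit (40.0%) and 16 of 34 small-subunit genes (47.1%) rose, beside 26.9% of all tested genes.

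**Figure D4:**
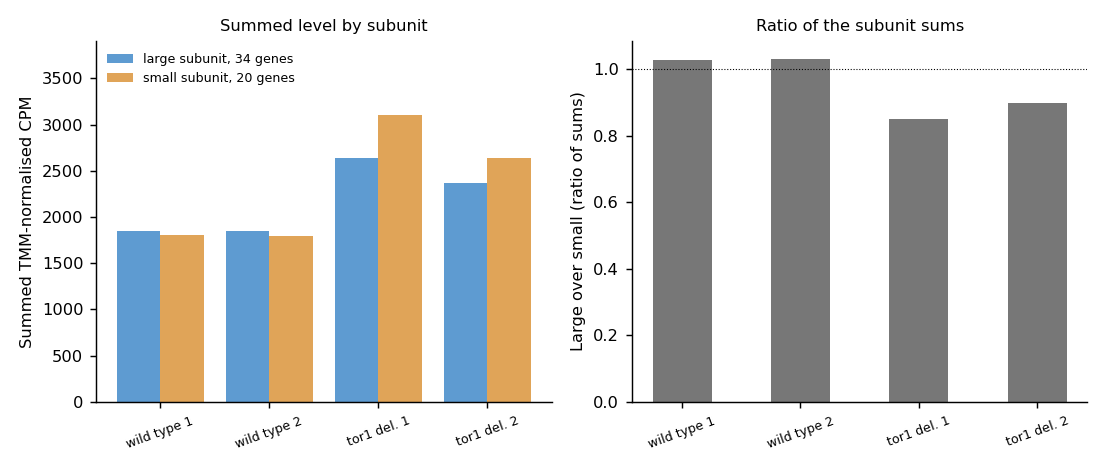
Left, TMM-normalised CPM summed over the 34 large-subunit (blue) and 20 small-subunit (orange) members in each of the 4 libraries. Right, the ratio of the sums, large over small, with a dotted line at 1, which is 1.03 for both bars of the wild type and 0.851 and 0.898 for those of the deletion.

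The members were also grouped by ancestry. Universal ribosomal protein names, which tell bacterial counterparts from mitochondria-specific proteins, were matched for 53 members. Of the 33 with a bacterial counterpart 15 rose (45.5%), at a median log2 fold change of 0.44. Of the 20 specific to mitochondria 8 rose (40.0%), at a median of 0.47. In the small subunit, 8 of 12 bacterial counterparts rose (66.7%) at a median of 0.88 and 3 of 7 mitochondria-specific members (42.9%) at 0.47. In the large subunit, 7 of 21 bacterial counterparts rose (33.3%) at a median of 0.38 and 5 of 13 mitochondria-specific members (38.5%) at 0.46. Among all tested genes 26.9% rose. Under upper quartile factors the median of the large-subunit bacterial counterparts was −0.02. All of these counts of members were lower without either wild-type library. In those fits the excess over all genes was lost for the full set of members. In the small subunit the share called higher stayed above that of all genes. None of these differences between groups of members was tested.

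The wild-type level per kilobase of coding sequence spanned a wide range among proteins that the ribosome holds together. MRPL38, the counterpart of L14 at the subunit interface, was the lowest at 8.12 CPM per kb. Its wild-type counts were 57 and 35 and its deletion counts 31 and 28, and its log2 fold change of 0.11 ± 0.36 could not be told from 0 at this depth. MRPL40 at 16.5 and MRPL9, the counterpart of L3, at 20.5 CPM per kb came next. RSM19 was the highest at 411 CPM per kb, above MRPL37 at 365 and RSM18, the counterpart of S18, at 344 CPM per kb. Across the 54 members the log2 level per kb and the log2 fold change were almost unrelated (Pearson r −0.08, Spearman rho −0.10), a description over genes that share the same 4 libraries.

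The deletion libraries differed from each other more than the wild-type libraries did. No member differed by over 1.5-fold between the wild-type libraries, whereas 10 of 54 (18.5%) did between the deletion libraries, beside 24.98% of all tested genes. On the log2 scale the ratio of deletion library 1 over 2 ran from −1.04 for RSM26 to 1.10 for RSM22. RSM26 encodes mS42, of the superoxide dismutase fold family. It was at 42.8 and 87.8 CPM in the deletion beside 45.1 and 49.5 CPM in the wild type.

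This spread was related to coding length. Among the 27 shorter members (213 to 699 bases) deletion library 1 was the higher in 21, and among the 27 longer (714 to 1887 bases) in 10. The correlation of the log2 ratio of deletion library 1 over 2 with log2 coding length was −0.33 (Spearman −0.41) over 54 members and −0.24 (Spearman −0.30) over 5765 coding genes. The fold change between strains was far less related to length (r 0.13, rho 0.15 over members), and 11 of the shorter and 12 of the longer members rose. The part of length in single calls was not tested.

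The size of the fold changes depended on how libraries were scaled. Upper quartile factors moved the median of all genes by −0.39 and library totals alone by −0.33 on the log2 scale. All genes were then called 1110 higher and 2508 lower, or 1179 higher and 2328 lower, in place of 1665 and 1543. Under upper quartile factors 10 members rose and 4 fell (MRPL11, MRPL20, MRPL27 and RSM22), and under library totals 12 rose and 2 fell (MRPL11 and RSM22). The 18.5% and 22.2% of members called higher then stood beside 17.9% and 19.0% of all genes. A change of scaling moves all genes by about the same amount, so the members' median relative to that of all genes (0.48) and the difference between the subunits are nearly fixed by construction.

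**Figure D5:**
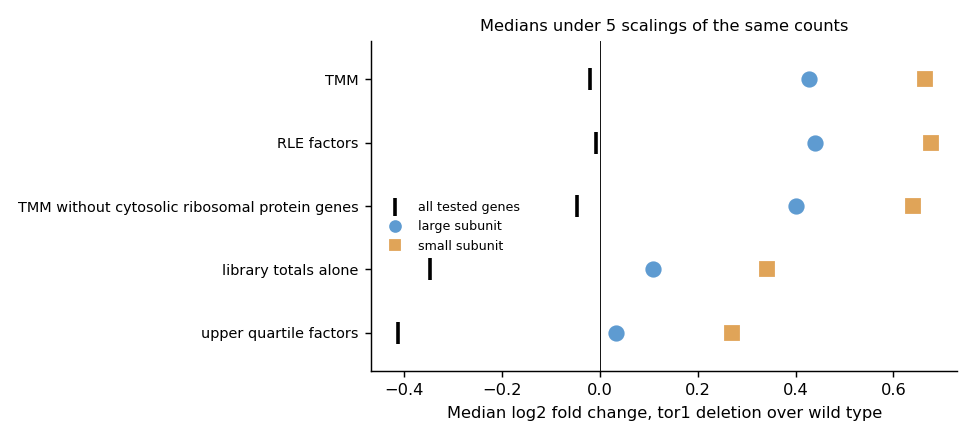
Median log2 fold change, deletion over wild type (horizontal axis), of all tested genes (black ticks), large-subunit (blue circles) and small-subunit members (orange squares) under 5 scalings of the same counts. All 3 medians shift together, as a scaling moves all genes alike, with large at 0.03 and small at 0.27 under upper quartile factors.

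Site content and fold change were then set side by side. The 43 members with a C 2 bases before the motif included 18 that rose, at a median log2 fold change of 0.38, and the 10 with a site but without that C included 5, at 0.64. Across all tested coding genes, 275 of the 830 with the motif rose (33.1%), at a median of 0.19, beside 1362 of 4940 without it (27.6%), at 0.00. The members are among the 830. PUF3 itself was low and did not pass, at 8.78 and 7.62 CPM in the wild type and 8.33 and 5.82 CPM in the deletion (log2 −0.23 ± 0.30, edgeR adjusted p = 0.544), with the sign changed without deletion library 2.

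The 300 bases around the start codon (250 before and 50 after) were searched on both strands. There, 3 promoter motifs were less frequent in members than in all coding genes. CCAAT, the core of sites for the Hap2/3/4/5 complex that drives respiratory genes, was in 22 of 54 members (40.7%) and in 43.3% of all coding genes. AGGGG, the core of stress response elements bound by Msn2 and Msn4, was in 8 members (14.8%) and in 21.6% of all. AATTTT, part of an element of genes for cytosolic ribosome synthesis, was in 19 members (35.2%) and in 51.7% of all. On the other strand it reads AAAATT, and these 2 strings can overlap. These shares were compared without a test. HAP4, the activating subunit of the Hap complex, rose from 18.7 and 22.1 CPM to 154 and 159 CPM (log2 2.94 ± 0.18, edgeR adjusted p = 8.87e-05). Its 2 wild-type libraries lay far below both deletion libraries.

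The structural genes of the same ribosome that bear other names also stood higher in the deletion. Of 11 in the large subunit 6 rose and none fell, at a median of 0.53, led by MRP20 (L23 at the tunnel exit), from 47.7 and 54.4 CPM to 136 and 149 CPM (log2 1.48 ± 0.17, edgeR adjusted p = 0.000748). RML2, the counterpart of L2, rose by 1.04 ± 0.18. Of 14 in the small subunit 5 rose and none fell, at a median of 0.50. MRP51 led, from 61.9 and 56.6 CPM to 164 and 198 CPM (log2 1.61 ± 0.18, edgeR adjusted p = 0.000656), with MRP1 at 0.97 ± 0.17. The shares of these genes that rose were 54.5% (large) and 35.7% (small), beside 26.9% of all tested genes. Fewer of them rose without either wild-type library. Without wild-type library 1 both shares were below that of all genes. The letters TGTANATA followed the stop codon in 11 of the 11 and 14 of the 14.

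Of 12 genes listed for factors of mitochondrial translation 10 rose and 1 fell, at a median of 1.13. Among all tested genes 26.9% rose and 24.9% fell. The list also holds genes of enzymes that act on charged tRNA, GTF1, HER2, PET112 and FMT1, all called higher. TUF1, the elongation factor that delivers aminoacyl-tRNA, went from 112 and 86.0 CPM to 344 and 387 CPM (log2 1.88 ± 0.20, edgeR adjusted p = 0.000561). MEF2, a factor of ribosome recycling, rose by 2.03 ± 0.28 from low levels of 4.64 and 4.33 CPM to 15.4 and 21.2 CPM. MRF1, the peptide chain release factor, was the one that fell, by 0.49 on the log2 scale (SE 0.17, edgeR adjusted p = 0.0460), a call that was lost under several alternatives, among them DESeq2 and leaving out either wild-type library. With wild-type library 1 or 2 left out 5 and 6 of the 12 rose, as did 6 under upper quartile factors, where all genes were at 16.7%, 17.1% and 17.9%.

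Among 16 translational activators, which attach single mitochondrial messages to the ribosome, 7 rose (43.8%) and none fell in the edgeR test, at a median of 0.60. PET494, for the message of cytochrome oxidase subunit 3, rose from 31.1 and 30.8 CPM to 134 and 114.9 CPM (log2 2.00 ± 0.18, edgeR adjusted p = 0.000273). MSS51, for that of subunit 1, rose by 1.62 ± 0.18. Among all tested genes 26.9% rose. Fewer activators were called higher without either wild-type library, as were fewer of all genes.

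The assembly and membrane anchoring list was mixed, with 4 of 14 higher (28.6%, near the 26.9% of all tested genes) and 1 lower, at a median of 0.30 that was −0.10 under upper quartile factors and −0.03 under library totals. OXA1, the insertase that takes up nascent chains, rose by 0.92 ± 0.17. MTG1, a GTPase of large-subunit assembly, fell from 449 and 450 CPM to 230 and 195 CPM (log2 −1.08 ± 0.18, edgeR adjusted p = 0.00293). None of the list was called higher without wild-type library 1 or without wild-type library 2 (edgeR), and 8 were without deletion library 1.

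Of 9 genes for mitochondrial DNA upkeep and transcription, 3 rose (33.3%, beside 26.9% of all tested genes) and 1 fell, at a median of 0.30 that was likewise −0.10 and −0.02 under those scalings. ABF2, which packages mitochondrial DNA, rose by 1.18 ± 0.17 and RPO41, the mitochondrial RNA polymerase, by 1.54 ± 0.28. The DNA helicase gene HMI1 fell (log2 −1.13 ± 0.28), a call that was lost without wild-type library 1. Together the 76 genes of these lists gave 35 higher (46.1%, all tested genes 26.9%) and 3 lower (3.95%, all tested genes 24.9%). Fewer of the 76 were called higher without either wild-type library. Without wild-type library 1 their share was near that of all genes.

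The cytosolic ribosomal protein genes went the other way. Of 137, none rose and 135 fell in the edgeR test, at a median log2 fold change of −1.73, with the smallest p for RPS28B at −2.39 ± 0.20 and RPL6B at −2.16 ± 0.18, both members of duplicated pairs whose copies can share reads. The count of 0 was the same at an unadjusted p below 0.05 and in DESeq2. Their share was 18.5% and 19.0% of counts for the wild-type pair and 5.35% and 4.34% for the deletion pair. Their TGTANATA share was 6 of 137 (4.38%).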

How the data were processed

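Poly(A) RNA libraries of 2 strains, 2 per strain, were grouped by the strain in their titles. The authors deposited raw counts per gene, 8060480 to 14446057 per library, as whole numbers. FastQC, Subread, featureCounts and the build sacCer3 are named in the submitters' processing notes, while settings, annotation release and use of strand were not found in the labels. Reads of overlapping and antisense genes therefore cannot be told apart. MRPL19 and MRPL51 overlap another annotated gene, neither passed the test on all libraries, and overlaps with reading frames outside the RefSeq annotation were not checked. No member had a near-identical copy (blastn 2.17.0, 90% identity over 50% of length). A table of log10 values that the authors deposited for 6519 genes was found to be the counts over 1.61, 1.03, 0.669 and 0.903 for the 4 libraries, plus 1, on a log10 scale, and entered as an alternative only.

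Identifiers were matched to the RefSeq R64 annotation, 6047 by systematic name and 41 by symbol, with 1039 not matched. CPM here are counts scaled to library size with edgeR's TMM factors (1.13, 1.11, 0.864 and 0.923). Genes were filtered by filterByExpr, and strains were compared with the quasi-likelihood test of edgeR 4.0.16 (R 4.3.3) with strain as the only term, Benjamini-Hochberg adjustment over 6197 genes and a threshold of 0.05. The coefficient of variation that edgeR estimated beyond counting error was 17.8%. SE was derived from F as |log2 fold change| over its root. Members, gene lists and naming rules were chosen with earlier results of these data known, so counts over them are descriptions.

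The genes named are TOR1, the members with the 8 highest and 5 lowest fold changes in the large subunit and the 6 highest and 4 lowest in the small, and the 3 most and 3 least abundant per kb. RSM22, MRPL32, AFG3, YTA12, PUF3, HAP4 and the 2 genes of each list with the smallest p among those called complete the rule, and others were chosen after their values were seen. The lists held other structural, translation factor, assembly, activator, mitochondrial DNA, regulator, strain marker and cytosolic ribosomal protein genes. Of 7 regulator genes, 4 were higher and TOR1 lower. Of 7 strain markers tested, TOR1 and STE3 were lower. Sequences were read from the RefSeq R64 genome, and the promoter window of 250 bases before and 50 after was set from the start codon. Intervals are Wilson's and cover counting error only.

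On simulated data with changes in 200 genes, the same test recovered 56% of 100 genes with a log2 change of 1 and 11% of 100 with 0.6, with 2 false calls among 6143 genes tested. All genes were simulated with the same spread, and far fewer changed than were called in the real data. These shares are therefore not the recovery to expect in the 4 libraries. Libraries of a strain were not duplicates (chi-square per degree of freedom 19.1 for the wild type and 70.6 for the deletion). Alternatives were other scalings, filters, thresholds and tests (limma-voom 3.58.1, DESeq2 1.42.0, the edgeR likelihood ratio test), a replicate term and leaving out each library.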

Additional observations from a re-analysis of the deposited data

How the results depend on the processing

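Upper quartile factors gave 2508 genes called lower over all genes, 10 members higher and 4 lower, large-subunit counts of 3 higher and 3 lower, small-subunit counts of 7 and 1, other lists of 18 and 12, and subunit medians of 0.0328 (large) and 0.271 (small). Library totals gave 2328, 12 and 2, 4 and 1, 8 and 1, 19 and 8, and medians of 0.108 and 0.341. The fold changes of RSM7, RSM19, MRPL38 and MRPL32, which were never called in those fits, were −0.128, −0.165, −0.281 and −0.113 under the former and −0.0721, −0.104, −0.219 and −0.0516 under the latter. A threshold of 0.01 gave 860 lower genes, 13 members higher (5 large) and 20 higher and 1 lower in the other lists. A threshold of 0.1 gave 1 member lower (1 large) and 5 lower in the other lists. The shares of all genes called higher at 0.01 and lower at 0.1 are not given here. The counts higher at 0.01 and lower at 0.1 therefore have no background beside them. Adding the structural genes with other names gave a small-subunit median of 0.53 and a difference, large minus small, of −0.0757. With 1 library left out, all genes gave 1045 to 2281 higher and 915 to 2179 lower, members 9 to 35 and 0 to 5, the large subunit 2 to 20 and 0 to 3, the small subunit 7 to 16 and 0 to 2, and other lists 13 to 46 and 1 to 9. Subunit medians then ran from 0.39 to 0.44 (large) and 0.61 to 0.69 (small), and their difference from −0.31 to −0.18. Single genes that changed sign ran from −0.467 to 0.0328 (MRPL39), −0.857 to 0.119 (MRPL3), −0.0262 to 0.517 (RSM7), −0.377 to 0.0701 (RSM27), −0.459 to 0.178 (MRPL37), −0.184 to 0.395 (MRPL38) and −0.491 to 0.0188 (PUF3). Of 719 values of 48 single genes under alternatives, 645 kept their direction and their side of the threshold. The cause of these changes was not tested.

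Libraries of the strains share only a number, and deviations of same-numbered libraries correlated at −0.07 over 6197 genes, so the numbers were not taken to pair them. With the replicate block 24 members were higher and 1 lower (RSM22, so 1 in the small subunit), and MRF1 was not called. Depth limits low genes most. In the simulated data, with 2 libraries per strain, 56% of changes of 1 and 11% of changes of 0.6 on the log2 scale were recovered. As stated above, these are not the shares to expect in the 4 libraries.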
